A study of Mus musculus with 6 samples.

Results

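The 10 genes described here encode catalytic and regulatory subunits of the PI3-kinases: Pik3ca, Pik3cb, Pik3cd, Pik3cg, Pik3r1, Pik3r2, Pik3r4, Pik3r5, Pik3c3 and Pik3c2a. They were chosen by name, and each matched 1 of the 37867 gene models in the table that the authors deposited. RNA was sequenced from CD4+CD8+ (double-positive) thymocytes sorted from C57bl6 mice, 3 libraries of the genotype labelled mir181a1/b1 Knockout and 3 labelled Wild type. The labels give no other allele or treatment, no age, and no word on whether a deletion was limited to a cell type or on how many animals stand behind a library. The table gives 1 FPKM value per genotype (fragments scaled to transcript length and library size, a level per length that can be compared between genes), so no value of a single library and no SD can be shown. The error of a ratio is the standard error (SE) implied by the authors' test statistic, and a gene is called changed where its q in the authors' deposited table is under 0.05. All ratios are knockout over wild type.

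PI3-kinases phosphorylate inositol lipids of membranes at the 3 position, and proteins with lipid-binding domains then gather at the marked membrane. Class IA enzymes pair a p110 catalytic subunit with a p85-type regulatory subunit that docks on phosphorylated tyrosines of receptors and adaptors, and the class IB enzyme pairs p110 gamma with p101 or p84 and responds to G protein beta and gamma subunits. Class II enzymes work without a regulatory subunit of the p85 type, and the class III enzyme Vps34, held by Vps15, makes the lipid of endosomes and autophagosomes. In developing T cells, class I signalling is known for its part in survival and growth at and after the pre-T cell receptor checkpoint.

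The microRNAs named in the genotype have a common seed, the stretch of bases 2 to 8 that pairs with target transcripts. They are shown because this seed defines which sites were looked for in the 10 transcripts, with the seed in capitals and the sequences and GRCm38.p6 positions from RefSeq. The first lies at chr1:137966468-137966490 and the second at chr1:137966650-137966673, both on the plus strand.
miR-181a-5p: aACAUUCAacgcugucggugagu
miR-181b-5p: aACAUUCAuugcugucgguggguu
The seed was found in 6 mature entries of the RefSeq table with 4 distinct sequences, so mature microRNAs with the same seed are also encoded at loci that the genotype label does not name.

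Of the 10 genes, 2 had a match to the seed in the 3′ UTR of their GENCODE M21 reference transcript, Pik3cg and Pik3r1. The letters searched on the transcript strand were TGAATGT, the match to bases 2 to 8, and GAATGTA, the match to bases 2 to 7 followed by A. The 8-base match TGAATGTA contains both. Pik3cg held the 8-base match at position 1743 of a 3′ UTR of 2408 bases (GRCm38, chr12:32174828-32174835, minus strand). Pik3r1 held the first 7-base match at position 4232 of 4317 bases (GRCm38, chr13:101680642-101680648, minus strand). Each is shown in 30 bases of the UTR with the match in capitals.
Pik3cg: gcttctctctaTGAATGTAattttatggca
Pik3r1: aatcagtcactTGAATGTgctcagtgctat
Of 500 coding genes with a 3′ UTR of about the same length, 8.6% held the 8-base match at the length of Pik3cg, and 40.4% held TGAATGT at the length of Pik3r1. At least 1 of the 7-base matches was held by 34.2% of genes at the length of Pik3cg and 53.2% at that of Pik3r1. The longest UTR, that of Pik3ca with 5655 bases, held neither 7-base match, while 62.2% of genes of that UTR length held at least 1 of them. A match is a description of letters in 1 annotated transcript and does not show binding, and the end of the transcript used in these cells may differ.

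None of the 10 subunits was called changed between the genotypes. All 10 were tested by the authors, with q values from 0.275 to 0.941 in the authors' deposited table, and 0 had an unadjusted p under 0.05. Over all 13834 tested models 17.1% were called, 1.79% higher and 15.3% lower in the knockout. With 10 genes, a count of 0 is not read as a difference from that share. The median log2 ratio of the 10 was -0.18 beside -0.17 over all tested models. The ratios of 9 of the 10 were smaller than 0.5 in size on the log2 scale, and the exception was Pik3r2. On the deposited scale 4 of the ratios lay above 0 and 6 below. Relative to the median of all tested models, 5 lay above and 5 below, and none was called on that scale, where 14.4% of models were. The sources used here do not say how the authors' test statistic was made, so whether it measures the spread between libraries is unknown, and that spread may be technical.

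The cells carried the transcripts of their label. The 10 fixed markers of double-positive thymocytes summed to 6425 FPKM in knockout cells and 6994 FPKM in wild type cells, and none was called. Markers of other cells summed to 16.0 against 20.4 FPKM for B cells (Cd79b made up nearly all of it), 3.39 against 6.41 FPKM for myeloid cells, 0.780 against 2.14 FPKM for erythroid cells and 0.959 against 2.37 FPKM for thymic epithelial cells. Those of double-negative thymocytes summed to 44.2 against 33.5 FPKM, and those of mature T cells to 148 against 93.0 FPKM. Under 1 FPKM in both genotypes were 4 of 5 B cell markers, 2 of 5 myeloid, 3 of 4 erythroid and 4 of 5 epithelial ones, and Foxn1 and Epor are listed at 0 in the knockout. Their part in the ratios below was not tested. In bulk RNA, fewer cells of a type and less RNA per cell cannot be told apart. The FPKM of all models added up to 297352 in knockout and 360688 in wild type cells, and scaling to these sums moves every log2 ratio up by 0.28.

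Among the class IA catalytic subunits, Pik3ca was the most abundant, Pik3cd came next, and Pik3cb was the lowest. Pik3ca, which encodes p110 alpha, the widely expressed catalytic subunit, stood at 38.9 FPKM in knockout cells and 33.9 FPKM in wild type cells (mm9, chr3:32335127-32361753). Its log2 ratio was 0.20, its implied SE of 0.23 was the smallest of the 10, and its q was 0.674 per the authors' deposited table. The interval of 95% around that ratio ran from 0.835-fold to 1.57-fold.

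Pik3cd, which encodes p110 delta, the subunit enriched in leukocytes, stood at 13.0 FPKM in knockout cells and 18.0 FPKM in wild type cells (mm9, chr4:149023276-149075706). Its log2 ratio was -0.47 (implied SE 0.28), and its q of 0.275 per the authors' deposited table was the lowest of the family. Pik3cb, which encodes p110 beta, a subunit that G protein-coupled receptors can also engage, stood at 1.49 against 1.83 FPKM (mm9, chr9:98938820-99040506, log2 -0.30, implied SE 0.32). It was the lowest of the 10 in both genotypes, and 23.5% of tested models had a lower value in the knockout. The 3 transcripts together came to 53.4 FPKM in knockout cells and 53.8 FPKM in wild type cells. Within that sum Pik3ca made up 72.9% against 63.1%, Pik3cd 24.3% against 33.5% and Pik3cb 2.78% against 3.41%. The shift of Pik3cd relative to Pik3ca was -0.67 on the log2 scale, with an implied 95% interval from -1.39 to 0.04 if the 2 errors are independent, and it had the opposite sign, 0.56, once the trend with base composition described below was removed.

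**Figure D1:**
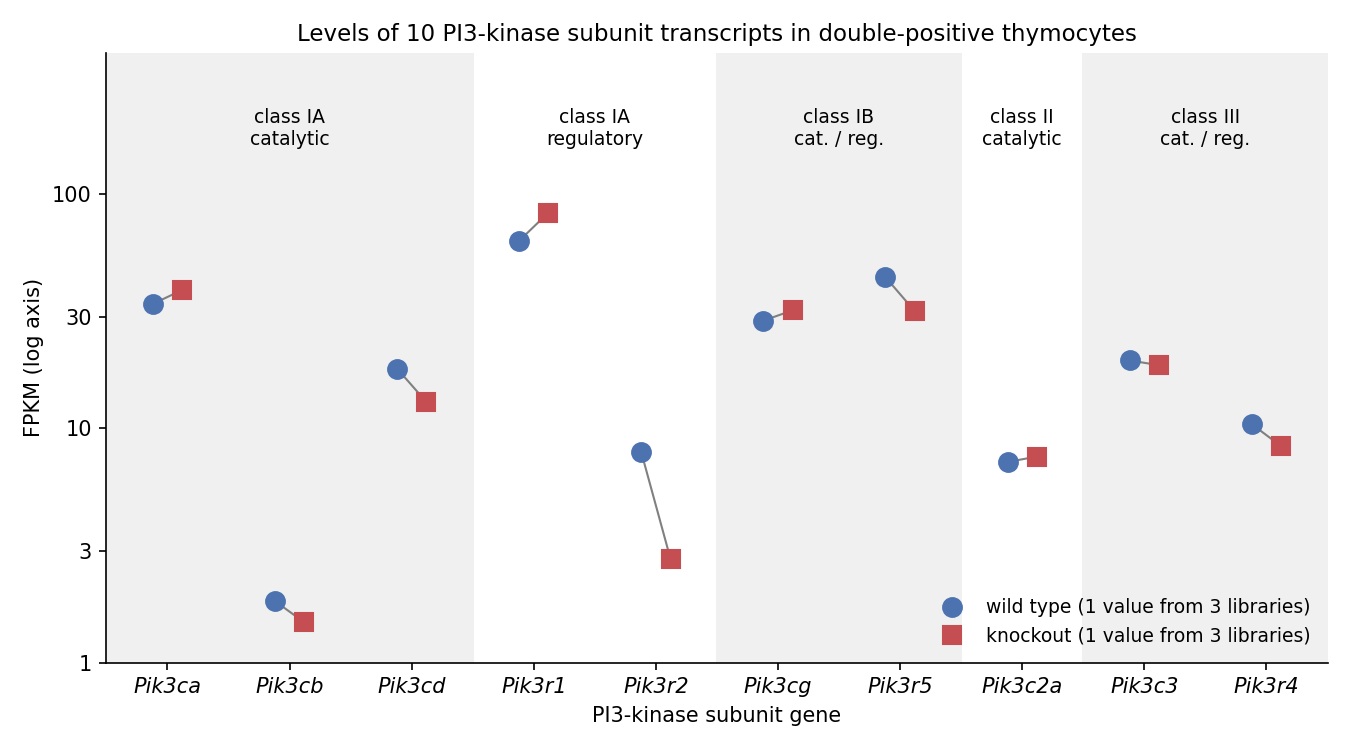
Level of each subunit transcript in FPKM on a log axis, with the wild type as circles and the knockout as squares, each the authors' single value per genotype, so no error bar is drawn. Pik3r1 is the highest in both genotypes at 63.1 and 83.3 FPKM, Pik3cb is the lowest at 1.83 and 1.49 FPKM, and Pik3r2 shows the widest gap.

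Of the summed transcripts of the 3 class IA regulatory genes Pik3r1, Pik3r2 and Pik3r3, most came from Pik3r1, 91.5% in knockout and 84.1% in wild type cells. Pik3r3, which is not among the 10, made up 5.49% and 5.29%. Pik3r1, which encodes p85 alpha and its shorter forms and both stabilises and restrains p110, was the most abundant of the 10 in both genotypes, at 83.3 FPKM in knockout cells and 63.1 FPKM in wild type cells (mm9, chr13:102450717-102538172). Its log2 ratio of 0.40 was the highest of the family, but its implied standard error was 0.50, larger than that of 72.7% of tested models, and the q was 0.692 per the authors' deposited table. The implied interval of 95% ran from 0.673-fold to 2.59-fold, so that a 2-fold rise lies inside it.

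Pik3r2, which encodes p85 beta, stood at 2.77 FPKM in knockout cells and 7.93 FPKM in wild type cells, 2.86-fold higher in the wild type. It was the only one of the 10 with a difference of more than 1.5-fold. Its log2 ratio was -1.52, with a q of 0.395 per the authors' deposited table. The implied SE of 1.08 was larger than that of 90.4% of tested models, and the implied 95% interval ran from 0.0809-fold to 1.51-fold. The model is listed at mm9 chr8:73285064-73328885, a span of 43822 bases, while the GENCODE reference transcript of Pik3r2 spans 8538 bases of GRCm38. The other 9 models span between 0.823 and 1.06 times the length of their reference transcripts. The same listed span holds 3 other models, Mast3, Ifi30 and BC059891, with log2 ratios of -1.11, -0.65 and -1.02 and implied SEs of 0.36, 2.95 and 1.69. Of these, Mast3, a microtubule-associated kinase, was called lower (18.8 against 40.7 FPKM, q = 0.0174 per the authors' deposited table). The way reads were divided among these 4 models is not stated in the sources at hand, and its part in the value of Pik3r2 was not tested.

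The 3 class IA regulatory transcripts, Pik3r3 included, summed to 91.1 FPKM in knockout cells and 75.01 FPKM in wild type cells. Set against the summed catalytic transcripts, this was 1.71 regulatory per catalytic transcript in knockout and 1.39 in wild type cells, and 1.61 and 1.32 without Pik3r3. These are sums of the authors' values with no error of their own. Of their parts, Pik3r1 was higher and Pik3r2 lower in value in the knockout, and neither was called. The log2 ratio of Pik3r2 less that of Pik3r1 was -1.92 as deposited and -0.27 once the trend with base composition described below was removed. For Pik3r1 less Pik3ca the values were 0.20 and 0.37. Neither these sums nor the shares of Pik3r1 above were worked out with that trend removed. Pik3r3, the gene of the third regulatory subunit p55 gamma, stood at 4.998 against 3.97 FPKM (q = 0.504 per the authors' deposited table).

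Both transcripts of the class IB enzyme were abundant. Pik3cg, which encodes p110 gamma, stood at 31.9 FPKM in knockout cells and 28.8 FPKM in wild type cells (mm9, chr12:32858337-32893514), a log2 ratio of 0.15 (implied SE 0.24). The carrier of the 8-base seed match thus had an implied 95% interval from 0.794-fold to 1.54-fold. Pik3r5, which encodes its adaptor p101, stood at 31.6 against 44.2 FPKM (mm9, chr11:68245626-68311348), a log2 ratio of -0.48 (implied SE 0.30) and a q of 0.309 per the authors' deposited table. There were 0.992 transcripts of Pik3r5 per transcript of Pik3cg in knockout and 1.53 in wild type cells. The difference of their log2 ratios was -0.63, with an implied 95% interval from -1.39 to 0.13 if the errors are independent, and 0.31 after removal of the trend with base composition. Pik3r6, the gene of the alternative adaptor p84, is listed under the older name BB220380 at 0 FPKM in knockout cells and 0.0112 FPKM in wild type cells and was not tested.

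On the deposited scale, the class II gene Pik3c2a and the class III gene Pik3c3 had the ratios closest to 0. After removal of the trend with base composition, Pik3c2a was at -0.35 and Pik3c3 at -0.04. Pik3c2a, a class II enzyme of endocytosis and vesicle traffic, stood at 7.57 FPKM in knockout cells and 7.18 FPKM in wild type cells (mm9, chr7:123480789-123586972, log2 0.08, implied SE 0.32). Pik3c3, which encodes Vps34, stood at 18.6 against 19.5 FPKM (mm9, chr18:30432549-30507774), a log2 ratio of -0.07 (implied SE 0.25). Its implied 95% interval ran from 0.680-fold to 1.34-fold on the deposited scale. Pik3r4, which encodes the Vps34 scaffold Vps15, stood at 8.39 against 10.4 FPKM (mm9, chr9:105545324-105589985, log2 -0.31, implied SE 0.28). There were 0.451 transcripts of Pik3r4 per transcript of Pik3c3 in knockout and 0.535 in wild type cells. The difference of their log2 ratios was -0.25, with an implied 95% interval from -0.98 to 0.49 if the errors are independent. It had the opposite sign, 0.12, after removal of the trend with base composition. Of the remaining class II genes, Pik3c2b stood at 1.00 against 2.05 FPKM (log2 -1.03, implied SE 0.41, q = 0.0641 per the authors' deposited table), and Pik3c2g is listed at 0 FPKM in both genotypes.

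The order of the levels was nearly the same in both genotypes. In the wild type it ran from Pik3r1 over Pik3r5, Pik3ca, Pik3cg, Pik3c3, Pik3cd, Pik3r4, Pik3r2 and Pik3c2a to Pik3cb, and 5 of the 10 genes held the same rank in the knockout. Pik3r5 went from rank 2 to rank 4, Pik3ca and Pik3cg each stood 1 rank higher in the knockout, and Pik3r2 and Pik3c2a changed places. No error of a level is given in the table, so whether neighbours in this order differ beyond their spread was not tested. The part of base composition in this order, and in the shares and transcript ratios between genes above, was not tested either.

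The size of a change that could have been called differed between the genes. The largest p of a called model was 0.00848, which corresponds to a ratio of 2.63 implied standard errors. With its own error, Pik3ca would have needed a 1.53-fold difference, Pik3cg 1.56-fold, Pik3c3 1.58-fold, Pik3cd 1.67-fold and Pik3r5 1.73-fold. Pik3r1 would have needed 2.47-fold and Pik3r2 7.14-fold. For these 2 genes the table therefore says little about changes that would have been called in the others. All 10 ratios were smaller than 2 implied standard errors, and 6 were smaller than 1.

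**Figure D2:**
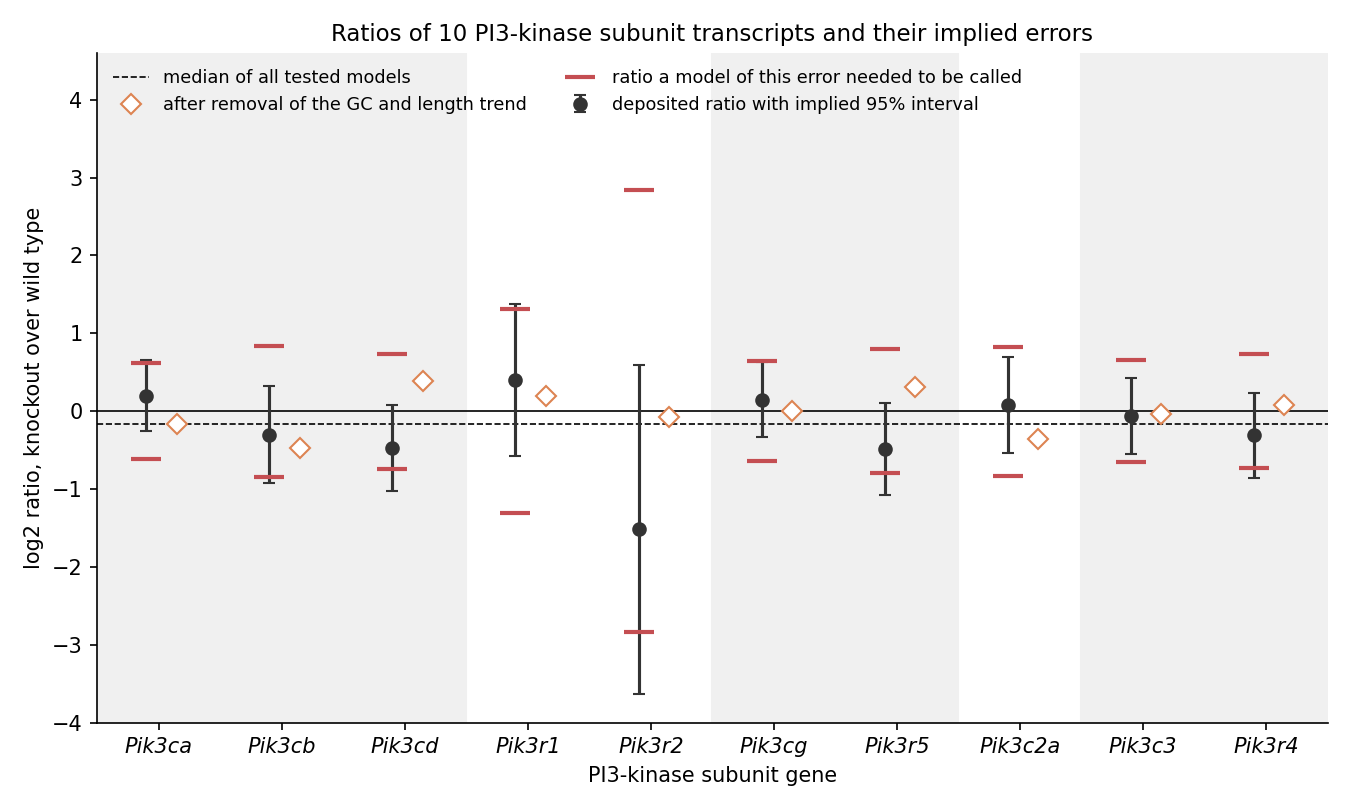
Log2 ratio of each subunit, knockout over wild type, with filled circles for the deposited ratio and bars for its implied 95% interval, open diamonds for the value with the GC and length trend taken out, and short red lines for the size that a model of that error needed to be called. No filled circle reaches a red line, and the interval of Pik3r2 is the widest.

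Within the family the ratio was lower at higher values of the GC content of the transcript. The reference transcripts of the 10 genes ran from 39.0% GC in Pik3c2a to 61.4% in Pik3r2. All 4 transcripts of at least 50% GC (Pik3r4, Pik3r5, Pik3cd and Pik3r2) had ratios below 0, and 4 of the 6 under 50% (Pik3ca, Pik3cg, Pik3r1 and Pik3c2a) had ratios above 0. Spearman's rho between ratio and GC content was -0.855 over the 10 genes and -0.80 over the 9 without Pik3r2, beside -0.763 over 8989 tested coding genes of at least 1 FPKM. These are descriptions across genes that come from the same libraries.

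The 500 genes nearest in GC content to Pik3cd had a median log2 ratio of -0.95, beside -0.47 for Pik3cd itself. For Pik3r5 the pair of values was -0.88 and -0.48, and for Pik3r2 it was -1.43 and -1.52. The value of Pik3r2 thus lay close to that of transcripts as rich in G and C, and those of Pik3cd and Pik3r5 lay above theirs. At the other end, the genes nearest to Pik3c2a had a median of 0.33 beside its own 0.08. When a joint trend of GC content and length was fitted over the 8989 genes and subtracted, the 10 values ran from -0.47 in Pik3cb to 0.39 in Pik3cd, with an SD across the genes of 0.27 in place of 0.54. Over the 9 genes without Pik3r2 the SD was 0.29 in place of 0.32. The signs of Pik3ca, Pik3cd, Pik3r4, Pik3r5 and Pik3c2a turned. None of the 10 was called on that scale, where 1.79% of the 8989 genes were, and the lowest adjusted p was 0.753, that of Pik3cb (normal test on the implied error, Benjamini-Hochberg). Whether the trend is technical or belongs to the genotype was not tested.

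**Figure D3:**
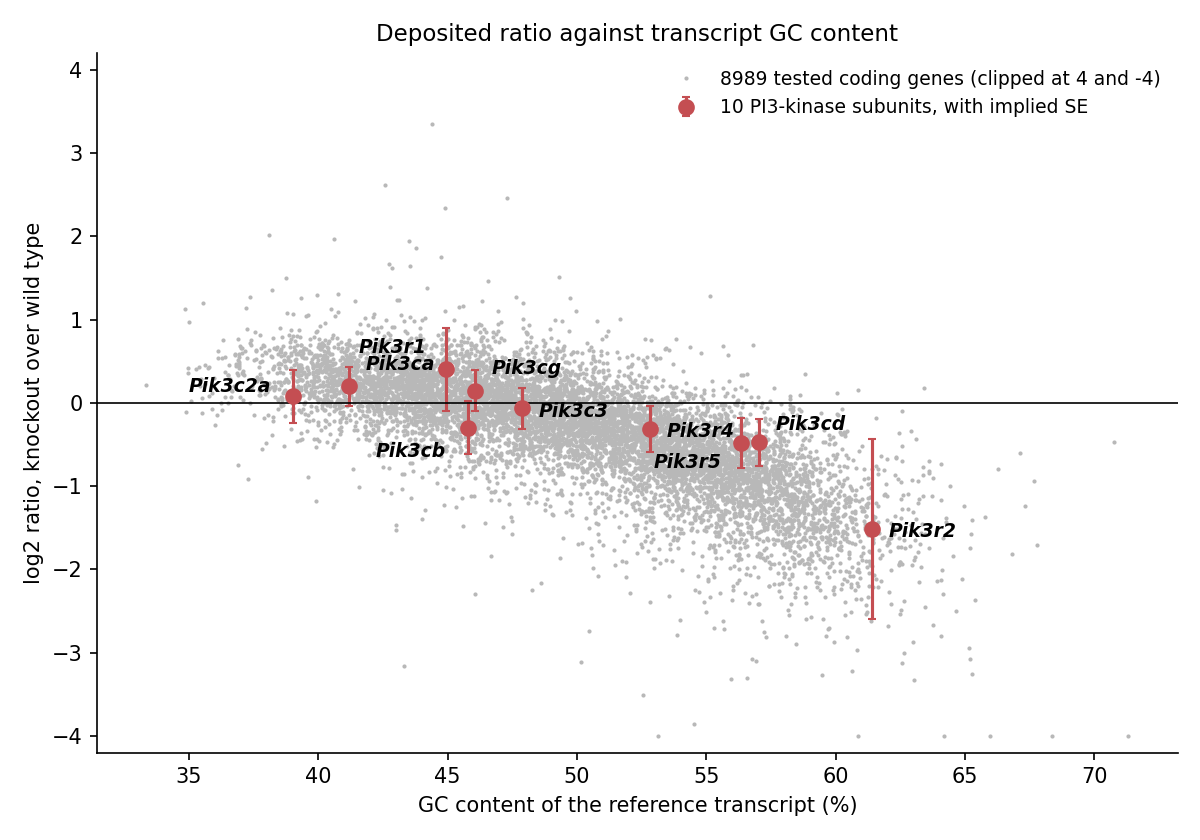
Deposited log2 ratio, knockout over wild type, against GC content of the reference transcript in percent, with 8989 tested coding genes as grey dots and the 10 subunits as red points with their implied standard error. The subunits run along the grey band from Pik3c2a at 39.0% GC to Pik3r2 at 61.4% GC.

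The 2 genes with a seed match were both on the positive side, Pik3cg at 0.15 and Pik3r1 at 0.40, and neither was called. Across the 8989 coding genes, the 1551 with TGAATGT in the 3′ UTR had a median log2 ratio of 0.08 beside -0.33 for those without, and 0.06 beside -0.01 with the GC and length trend taken out. On that corrected scale Pik3cg was at 0.00 and Pik3r1 at 0.19, each with its implied standard error of 0.24 and 0.50. Both lay within 1 standard error of the median of either group of genes.

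Around the subunits, 15 of 113 tested genes in 6 lists of the PI3-kinase pathway were called, 4 higher and 11 lower in the knockout, at a median log2 ratio of -0.14, beside 17.1% called and a median of -0.17 over all tested models. The medians were -0.35 for the other PI3-kinase subunits (2 tested), -0.00062 for the phosphoinositide phosphatases, -0.24 for the partners of Vps34, -0.26 for the other phosphoinositide kinases, -0.05 for the upstream genes and -0.15 for the effectors. With the GC and length trend taken out, 2 of the 109 list genes with a value were called higher and 0 lower, beside 1.79% of the 8989, so none of the 11 lower calls held on that scale. Centred on the median of all tested models, 5 were called higher and 7 lower. The lists were chosen with earlier results of these data known. None of 8 tested partners of the Vps34 complexes was called, and 1 had an unadjusted p under 0.05. In that list Becn1, the core subunit beclin, stood at 45.1 FPKM in the knockout with a log2 ratio of -0.28, and Uvrag at 24.4 FPKM with -0.02. Of 28 phosphoinositide phosphatases 1 was called higher and 0 lower, with 1 each at an unadjusted p under 0.05. Inpp5d, which encodes SHIP1, the phosphatase that removes the 5-phosphate from the class I product, stood at 21.4 against 29.5 FPKM (log2 -0.46, implied SE 0.25, q = 0.230 per the authors' deposited table).

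Of 12 tested genes in the list of other phosphoinositide kinases, which counts the scaffold Vac14, 2 were called lower and none higher. Over all tested models the shares were 15.3% and 1.79%. At an unadjusted p under 0.05 the counts were also 2 and 0. Pip5k1c, which makes the substrate of class I PI3-kinases, stood at 10.6 FPKM in knockout cells and 41.2 FPKM in wild type cells (log2 -1.96, implied SE 0.30, q = 9.2e-09 per the authors' deposited table). Vac14, the scaffold of the PIKfyve kinase that acts on the product of Vps34, stood at 9.65 against 16.9 FPKM (q = 0.0435 per the authors' deposited table). With the GC and length trend taken out, Pip5k1c was at -0.49 and Vac14 at 0.04 on the log2 scale, and neither was called. Vac14 was not called when centred either.

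Upstream, 2 of 27 receptors, adaptors and regulators were called higher and 4 lower, beside 1.79% and 15.3% of all tested models. Gng2, a G protein gamma subunit of the kind that recruits p110 gamma, stood at 7.42 against 2.04 FPKM (log2 1.86, q = 1.1e-07 per the authors' deposited table). Gnb2, a G protein beta subunit listed in a model together with Epo, stood at 32.5 against 107 FPKM (log2 -1.72, q = 1.2e-05 per the authors' deposited table). Cd28, the costimulatory receptor that binds p85, stood at 109 against 64.5 FPKM (q = 0.0178 per the authors' deposited table). Irs2, an insulin receptor substrate that docks p85, stood at 0.763 against 2.51 FPKM (q = 7.4e-05 per the authors' deposited table), and Cd5 and Lck also fell on the deposited scale. With the GC and length trend taken out, the log2 values were -0.26 for Gnb2, 0.48 for Cd28, -0.95 for Irs2, 0.18 for Cd5 and -0.09 for Lck, and none of these 5 was called. Centred, Cd5 and Lck were not called.

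Downstream, 1 of 36 effectors was called higher and 5 lower, beside the same 1.79% and 15.3% of all tested models. Akt1, a kinase that class I lipids recruit to the membrane, fell to 26.3 from 73.8 FPKM (log2 -1.49, q = 1.2e-06 per the authors' deposited table). Gsk3a, a kinase that Akt inhibits, stood at 44.3 against 90.3 FPKM, and Rptor, the mTORC1 scaffold, at 5.89 against 13.3 FPKM, both called lower. With the GC and length trend taken out, Akt1 stood at -0.20, Gsk3a at 0.29 and Rptor at -0.42 on the log2 scale, and none of the 3 was called, while Gng2 of the upstream list was called at 1.71. Whether the subunits differ from the other genes of the pathway was not tested.

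**Figure D4:**
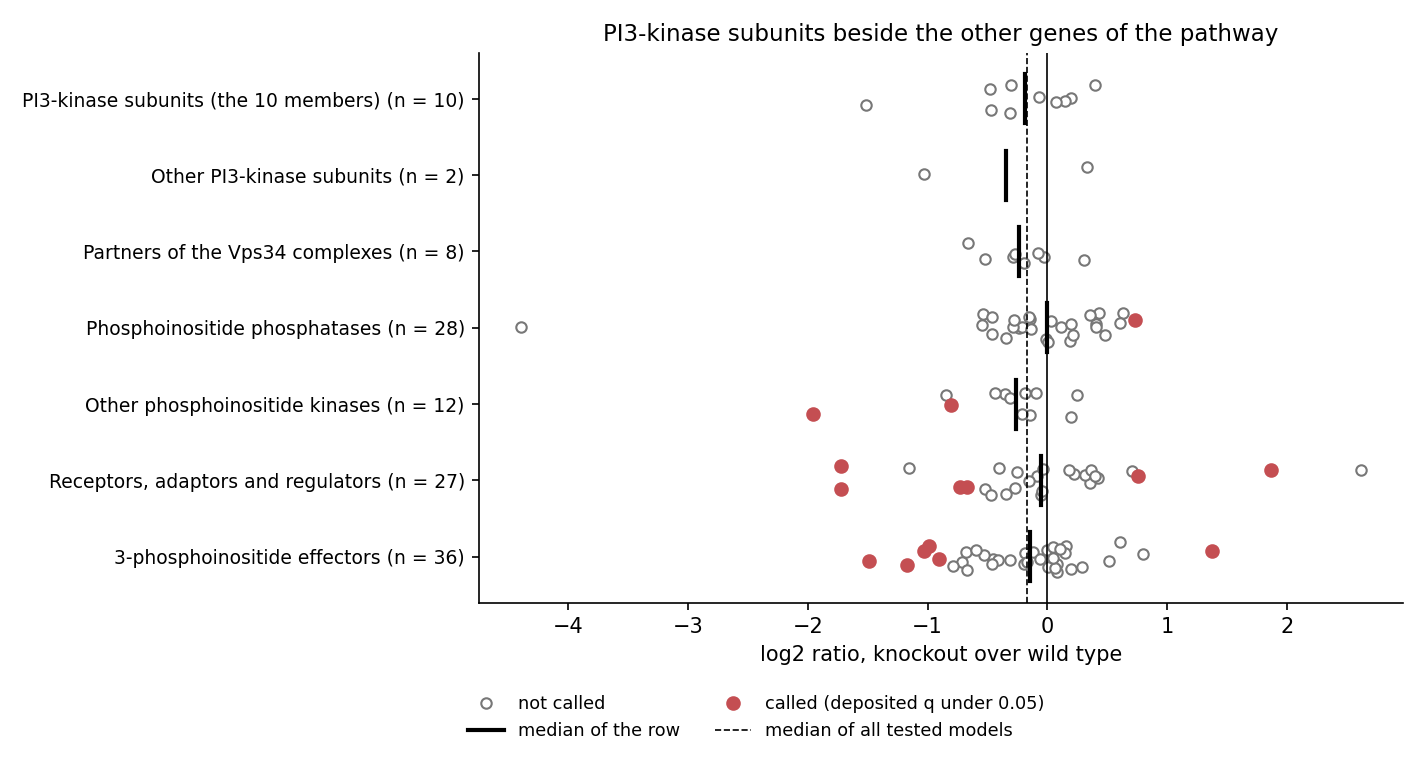
Log2 ratio, knockout over wild type, of each tested gene in 7 rows, the 10 subunits at the top and the 6 lists of other pathway genes below, with filled points for called genes, thick black lines for the median of a row and a dashed line for the median of all tested models. The top row holds no filled point and has a median of -0.18, and the lower rows hold 15 filled points in all.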

How the data were processed

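Double-positive thymocytes of 2 genotypes were sequenced, 3 libraries each. Per the submitters' processing notes, reads were aligned with TopHat2 to mm9; the sources used here do not name the counting and testing tools, the annotation or library depths. The authors deposited 1 FPKM value per genotype, a log2 ratio, a test statistic, a p-value and a q-value for 37867 models, of which 13834 were tested. As checked on the table, its q-values are Benjamini-Hochberg adjusted p-values, the p-values are two-sided normal tails of the statistic, and the log2 ratio is that of the 2 FPKM values in tested models. FPKM depends on the other transcripts of a library and takes no account of base composition. Read counts were not used here, so no count model or interval on counts applies. The sign of the log2 ratio was reversed to give knockout over wild type, and the implied standard error is its size over that of the statistic.

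One reference transcript per coding gene came from GENCODE M21 (GRCm38): basic set, best APPRIS class, then longest, and at most 1.2 times the span of the model. Older names were matched through RefSeq (GRCm38.p6), and 124 of 127 list entries were found. No coordinate was converted. The GC and length trend was a robust regression on cubic splines of 5 pieces (statsmodels 0.14.6) over 8989 tested coding genes of at least 1 FPKM. The fit was tried on simulated ratios made of that same fitted trend, added changes and normal noise of the implied errors. Such a trial cannot show that the form of the trend or the implied errors are right. The alternatives were centring, other scalings, pseudocounts of 1 and 0.1, a minimum of 1 FPKM, other q thresholds and a running median over 500 genes. Members and lists were chosen with earlier results of these data known. All 10 subunits were named, and of each list up to 3 called genes per direction by smallest p. Other genes were named after their values were seen, and some genes are not reported here.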

Additional observations from a re-analysis of the deposited data

How the results depend on the processing

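No subunit was called at a q under 0.01 or 0.1, which the lowest deposited q of 0.275 had already settled. Nor was any called with p adjusted over models of at least 1 FPKM (19.1% of these models were called by the deposited q). None was called after centring on the median (where 14.4% of models were called) or with the GC and length trend taken out (1.79% of the genes fitted). None was called after scaling to the FPKM sum or the upper quartile. The share over all models is not given here for the other q thresholds and these 2 scalings, so their counts of 0 are not read as a difference. The lowest adjusted p over all these settings was 0.158, that of Pik3ca scaled to the FPKM sum. Under the 5 alternatives that can turn a sign, 37 of 50 values of the 10 genes kept theirs and 13, in 6 genes, changed it, while pseudocounts and the sum over models cannot turn a sign here. With the GC and length trend removed, and with the GC trend removed by a running median, Pik3ca turned to -0.17 and -0.056, Pik3cd to 0.39 and 0.50, Pik3r4 to 0.077 and 0.19, Pik3r5 to 0.31 and 0.41, and Pik3c2a to -0.35 and -0.28. Pik3c3 turned to 0.10 when centred, 0.21 when scaled to the FPKM sum and 0.21 when scaled to the upper quartile. The cause was not tested beyond the construction of each scale. The called genes of the lists dropped with the trend removed from 15 to 2 in all, to 0 of the phosphoinositide phosphatases, 0 of the other phosphoinositide kinases, 1 of the upstream genes and 1 of the effectors, and centring left 1 of the other phosphoinositide kinases. Over all models, 89.6% of calls were lower as deposited, 75.03% when centred (1986 calls) and 54.7% with the trend removed (161 calls). No paired analysis was possible because the table holds 1 value per genotype, and for the same reason no library could be left out. Each subunit had 1 model, so no second model of a symbol was compared. The depth of a library is not known from the table, and precision rests on the implied errors.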

Other observations

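Models next to the subunits were looked at after their values were seen. Within 10000 bases of the 10 models lay 19 others, of which 12 were tested and 4 called, all lower in the knockout, beside 17.1% called and 15.3% called lower over all tested models. One was linc-Pik3c3-1, a long intergenic RNA model that ends 1338 bases before the listed start of Pik3c3 (mm9, chr18:30426342-30431210). It stood at 7.73 FPKM in knockout cells and 27.9 FPKM in wild type cells, 3.61-fold higher in the wild type (log2 -1.85, implied SE 0.29, q = 1.4e-08 per the authors' deposited table), while Pik3c3 itself had a log2 ratio of -0.07. The other 3 called models, Mast3, Il12rb1 and BC051227, lie in or beside the span listed for Pik3r2. As given above, that span is far longer than the reference transcript of Pik3r2, so a model near it need not be near the gene. Values of the 4 called models with the GC and length trend taken out are not given here. With 12 tested models, the count of 4 is not read as a difference from the share over all models. Il12rb1, a chain of the interleukin-12 receptor, stood at 6.02 against 11.8 FPKM and BC051227 at 6.35 against 15.4 FPKM. Of 19 long intergenic RNA models named for one of the 10 genes, 3 were tested, and linc-Pik3c3-1 was the one called.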
